A study of Mus musculus with 6 samples.

Results

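The nutrient transporters described here are the solute carriers that bring amino acids, sugars, lactate and related monocarboxylates, and fatty acids across cell membranes. They were taken as all genes of the Slc1, Slc2, Slc3, Slc5, Slc6, Slc7, Slc16, Slc27, Slc36, Slc38 and Slc43 families whose symbol was the single gene annotated to a probe set. This gave 74 genes among the 12394 genes measured, read by 108 probe sets, and no gene of the Slc36 family was among them. Where a gene had several probe sets, the probe set with the highest mean stood for it. By substrate, 35 carry amino acids or are partners of such carriers, 15 carry glucose or other sugars and polyols, 8 carry lactate or related monocarboxylates, 5 fatty acids, and 11 other substrates such as taurine, monoamines, choline or iodide. A further 34 genes of these families were not analysed here.

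The cells were regulatory T (Treg) cells, CD4 T cells that restrain immune responses, obtained from the spleen and lymph nodes of mice by sorting for CD4, CD25 and YFP. The 3 arrays labelled GATA3KO came from Gata3F/F Foxp3YFP-Cre mice, in which both alleles of Gata3, a transcription factor of T cells, are floxed. The 3 arrays labelled WT came from Gata3F/+ Foxp3YFP-Cre mice, which carry 1 floxed and 1 intact allele. Both groups thus carried the Cre fused to YFP at the Foxp3 locus and at least 1 floxed Gata3 allele, so the Cre acts in Foxp3-expressing cells of both. The design text gives 3 mice for each group, with age and sex not stated.

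Membrane carriers set which nutrients a lymphocyte can take up. Activated T cells are known to raise uptake of glucose through the facilitative GLUT carriers (Slc2 genes), of glutamine through Slc1a5 and the Slc38 carriers, and of leucine through CD98, a pair of the heavy chain Slc3a2 and the light chain Slc7a5. Lactate leaves or enters cells through the monocarboxylate carriers of the Slc16 family, and long-chain fatty acids are taken up and activated by Slc27 proteins. Treg cells are known to rely less on glycolysis and more on fatty acid oxidation than effector T cells.

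Values are RMA log2 intensities, and a difference of 1 is a doubling in signal. Array medians lay between 6.06 and 6.11, and precision is limited by having 3 arrays in a group. Gata3 itself read higher, not lower, where it was labelled deleted: its probe set read 9.83, 9.98 and 9.71 in arrays labelled GATA3KO and 9.57, 9.41 and 9.47 in arrays labelled WT. It passed as a rise without overlap of the groups (1.28-fold, log2 change 0.35, adjusted p = 0.0387 by limma). The sources used here do not say which part of Gata3 is floxed, and a probe set that reads another part cannot check the labels, so all directions given here rest on those labels. The T cell genes Cd3e, Cd3d, Cd3g, Cd4 and Cd5 were all above the level called dim below, while the Foxp3 probe set was dim, at 3.94 ± 0.12 in arrays labelled GATA3KO and 3.90 ± 0.05 in those labelled WT (SD, n = 3 each). The mean level of 7 measured Treg cell markers was 9.08 to 9.13 in arrays labelled GATA3KO and 9.04 to 9.15 in arrays labelled WT. Of these markers 1 rose and 1 fell (2.21% of all genes passed): Tnfrsf4, the receptor OX40, had a log2 change of 0.32 ± 0.05 (SE, adjusted p = 0.0186 by limma), and Nrp1, neuropilin 1, one of -0.77 ± 0.07 (SE, adjusted p = 0.00152 by limma). Ctla4 (0.22), Il2ra (0.20) and Ikzf2 (0.09) read higher in all arrays labelled GATA3KO without passing. The labels do not say whether each array holds the RNA of a single mouse, and the p-values measure the spread between these arrays.

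Of the 74 carriers, 2 changed, and both belong to the Slc2 family of facilitative sugar carriers. Slc2a9 rose and Slc2a3 fell in arrays labelled GATA3KO (limma, adjusted p under 0.05 over all genes). That is 2.70% of the members, beside 2.21% of all genes. These sets differ in brightness, since a larger part of the members was dim, as defined below. With dim probe sets left out, 2 of 25 members passed, beside 337 of 7436 genes. No carrier of amino acids, lactate or fatty acids passed. At an unadjusted p under 0.05 13 members (6 positive, 7 negative) were found, or 17.6%, beside 14.4% of all genes.

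The members' changes were mostly small. The median log2 change over the 74 genes was 0.02, beside 0.01 over all genes, with 43 positive and 31 negative. In 61 of 74 the log2 change was smaller in size than 0.2, beside 10792 of all 12394 genes. Arrays of the groups were fully separated, without overlap, in 16 members (21.6%), beside 19.8% of all genes. All 3 arrays labelled GATA3KO lay above all 3 labelled WT in 9 members (11.3% of all genes did so) and below them in 7 (8.51% of all genes did so). By class, the median log2 change was 0.0021 for amino acid carriers, 0.06 for sugar carriers, 0.02 for monocarboxylate carriers, -0.11 for fatty acid carriers and 0.03 for the other substrates. With the dim genes defined below left out, it was -0.21 for the 3 monocarboxylate carriers left, -0.28 for the single fatty acid carrier left and 0.15 for the 3 carriers of other substrates left. With each array left out in turn, the medians of all classes except sugar carriers took both signs, so no direction is given for them.

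**Figure D1:**
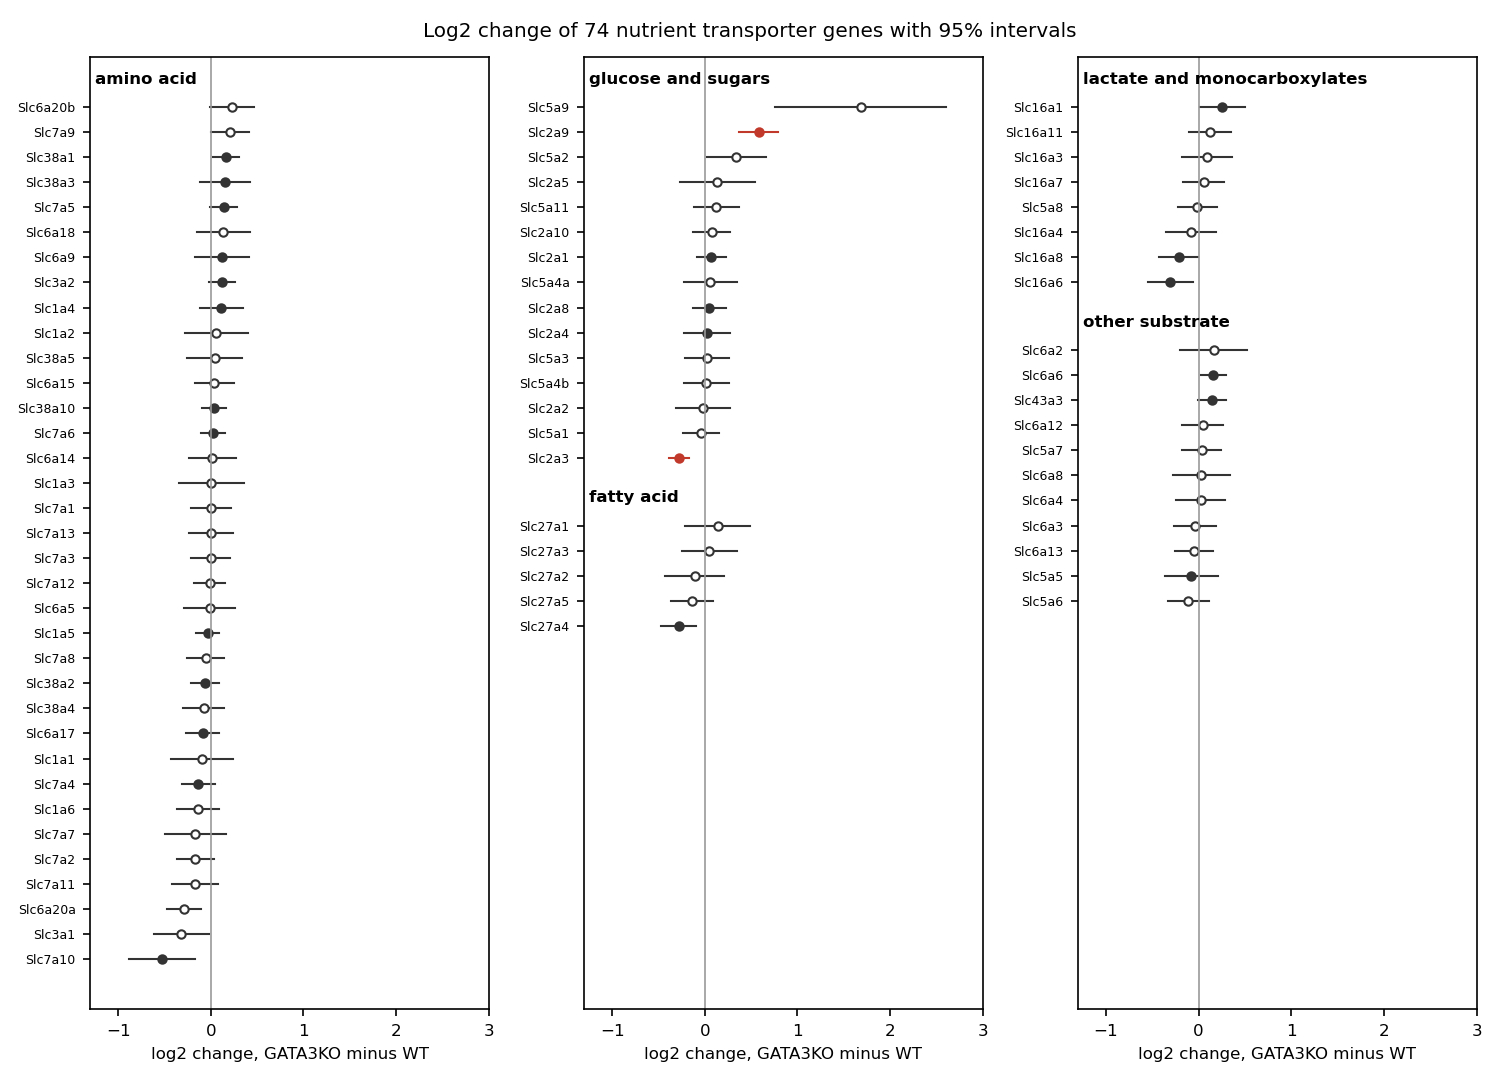
Log2 change (arrays labelled GATA3KO minus arrays labelled WT, 3 each) of the 74 carriers by substrate, with limma's 95% intervals as lines. Filled points are members above the dim limit, open points are dim members, and red marks the 2 that passed the threshold, Slc2a9 (0.59) and Slc2a3 (-0.28). Most points lie close to 0, and Slc5a9 stands apart at 1.68 with a wide interval.

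Many of these genes gave little signal in Treg cells. A gene is called dim here when its mean over the 6 arrays lay below 5.55, the 40th percentile of all genes, and 49 of the 74 members (66.2%) were dim, beside 44.2% of the 199 other solute carrier genes measured. Brightness also depends on the probes, so it is not used to rank genes. The dim members were 22 of 35 amino acid carriers, 10 of 15 sugar carriers, 5 of 8 monocarboxylate carriers, 4 of 5 fatty acid carriers and 8 of 11 others. They included carriers known chiefly from neurons, kidney or gut, such as the glutamate carriers Slc1a1, Slc1a2, Slc1a3 and Slc1a6, the dopamine carrier Slc6a3 and the intestinal glucose cotransporter Slc5a1. Over the dim members, the median deviation from the mean of the arrays labelled WT was 0.13 in GATA3KO replicate 1, -0.05 in replicate 2 and -0.06 in replicate 3. Replicate 1 of that group thus read higher than its fellows over the dim members. It also stood apart over all probe sets, where it correlated with GATA3KO replicates 2 and 3 at 0.9960 and 0.9956. GATA3KO replicate 2 correlated with the arrays labelled WT at 0.9961 to 0.9965. The part of GATA3KO replicate 1 in single changes was not tested apart from the values without it. Of the 25 members that were not dim, 15 changes were positive and 10 negative, with a median of 0.03. An unadjusted p under 0.05 was found in 9 of these 25, beside 4 of the 49 dim members. The groups did not overlap in 10 of the 25, beside 6 of the 49. The matching counts over all genes that were not dim are not given here.

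Slc2a9, which encodes GLUT9, a carrier best known for urate and related to the glucose carriers, had the clearest increase. It read 6.37, 6.25 and 6.29 in arrays labelled GATA3KO, against 5.82, 5.76 and 5.57 in arrays labelled WT. The groups did not overlap, and the gap between them was wider than the range within either. The means were 6.30 ± 0.06 in arrays labelled GATA3KO and 5.72 ± 0.13 in arrays labelled WT (SD, n = 3 each), a 1.50-fold rise (log2 change 0.59 ± 0.09, SE, adjusted p = 0.0162 by limma). Only 1 probe set reads this gene. The call was lost when GATA3KO replicate 2, GATA3KO replicate 3 or WT replicate 2 was left out (adjusted p up to 0.0727), while the log2 change stayed between 0.51 and 0.63 over the 6 such fits.

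Slc2a3, which encodes GLUT3, a high-affinity glucose carrier of neurons and lymphocytes, fell. It read 10.15, 10.21 and 10.20 in arrays labelled GATA3KO, against 10.41, 10.55 and 10.43 in arrays labelled WT. The arrays labelled GATA3KO lay close together and all below those labelled WT. The means were 10.18 ± 0.03 in arrays labelled GATA3KO and 10.46 ± 0.08 in arrays labelled WT (SD, n = 3 each), 1.21-fold lower (log2 change -0.28 ± 0.05, SE, adjusted p = 0.0216 by limma). Without the intensity trend the gene no longer passed (adjusted p = 0.135). It also failed to pass when GATA3KO replicate 1, 2 or 3 or WT replicate 2 was left out (adjusted p up to 0.0978), and the log2 change lay between -0.30 and -0.24 over the 6 such fits.

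The Slc2a3 decrease rests on its 2 bright probe sets. The second of them changed by -0.25 ± 0.06 (SE, adjusted p = 0.0760 in a limma fit over all probe sets), at 9.28 ± 0.04 in arrays labelled GATA3KO and 9.53 ± 0.10 in arrays labelled WT (SD, n = 3 each). Both carry name endings that mark probes able to read more than 1 transcript. The other 2 probe sets were dim, with mean levels of 4.01 and 3.92 and log2 changes of 0.12 ± 0.12 and -0.20 ± 0.14 (SE), and neither passed. With the probe sets of such name endings left out, a dim one stood for Slc2a3 and its change was 0.12.

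Slc5a9 had the largest positive log2 change of all 12394 genes and still did not pass. It encodes SGLT4, a sodium-coupled carrier of mannose and other sugars, and was singled out after its values were seen. It read 6.99, 6.07 and 6.02 in arrays labelled GATA3KO, against 4.13, 4.13 and 5.77 in arrays labelled WT. WT replicate 3 was far above its fellows and close to the lowest array labelled GATA3KO, yet the groups did not overlap. The log2 change was 1.68 ± 0.41 (SE, adjusted p = 0.0755 by limma), or 3.21-fold, with a 95% interval of 0.76 to 2.61. Without WT replicate 3 the change was 2.23 (adjusted p = 0.00955 by limma), the 1 of 6 fits with 1 array left out that passed. Over those fits the change lay between 1.37 and 2.23, with an adjusted p up to 0.290. The adjusted p was 0.285 with robust variance estimation and 0.198 without the intensity trend.

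The second Slc5a9 probe set gave the same picture. It read 6.24, 5.30 and 5.50 in arrays labelled GATA3KO, against 3.68, 3.57 and 4.82 in arrays labelled WT. WT replicate 3 was again the highest array of its group and GATA3KO replicate 1 the highest of all. In the fit over all probe sets its log2 change was 1.66 ± 0.33 (SE, adjusted p = 0.0397 by limma), while that of the first probe set had an adjusted p of 0.0810. Both probe sets were dim on average over the 6 arrays.

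**Figure D2:**
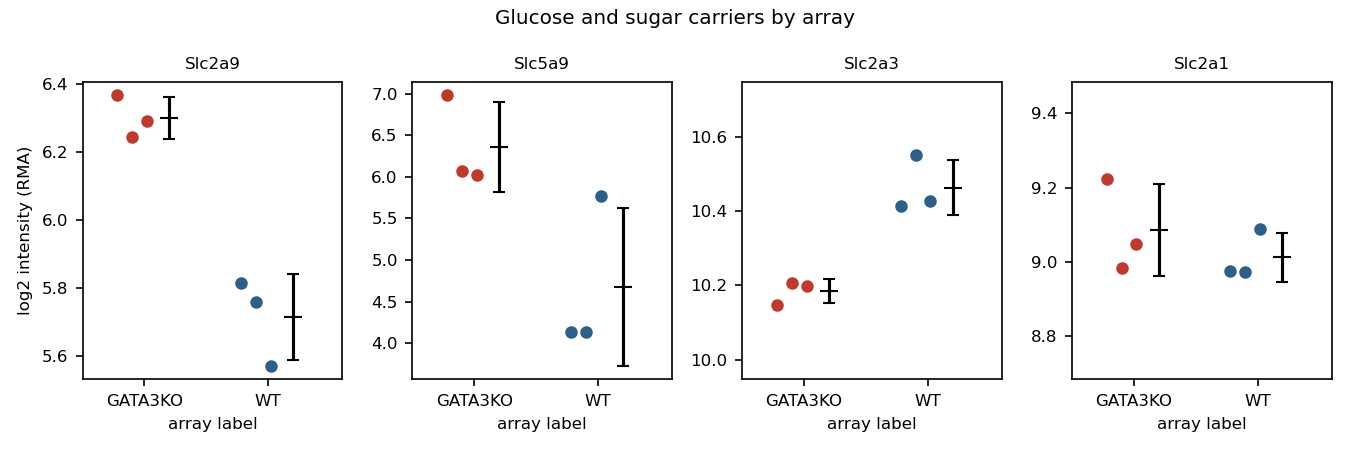
RMA log2 intensity of Slc2a9, Slc5a9, Slc2a3 and Slc2a1 in each array labelled GATA3KO (red) and WT (blue), replicates 1 to 3 from left to right, with the mean ± SD of each group (n = 3) in black. Each panel has its own range that does not start at 0. The groups are apart for Slc2a9, Slc5a9 and Slc2a3 and overlap for Slc2a1, and WT replicate 3 of Slc5a9 lies at 5.77, far from the other arrays of its group at 4.13.

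**Figure D3:**
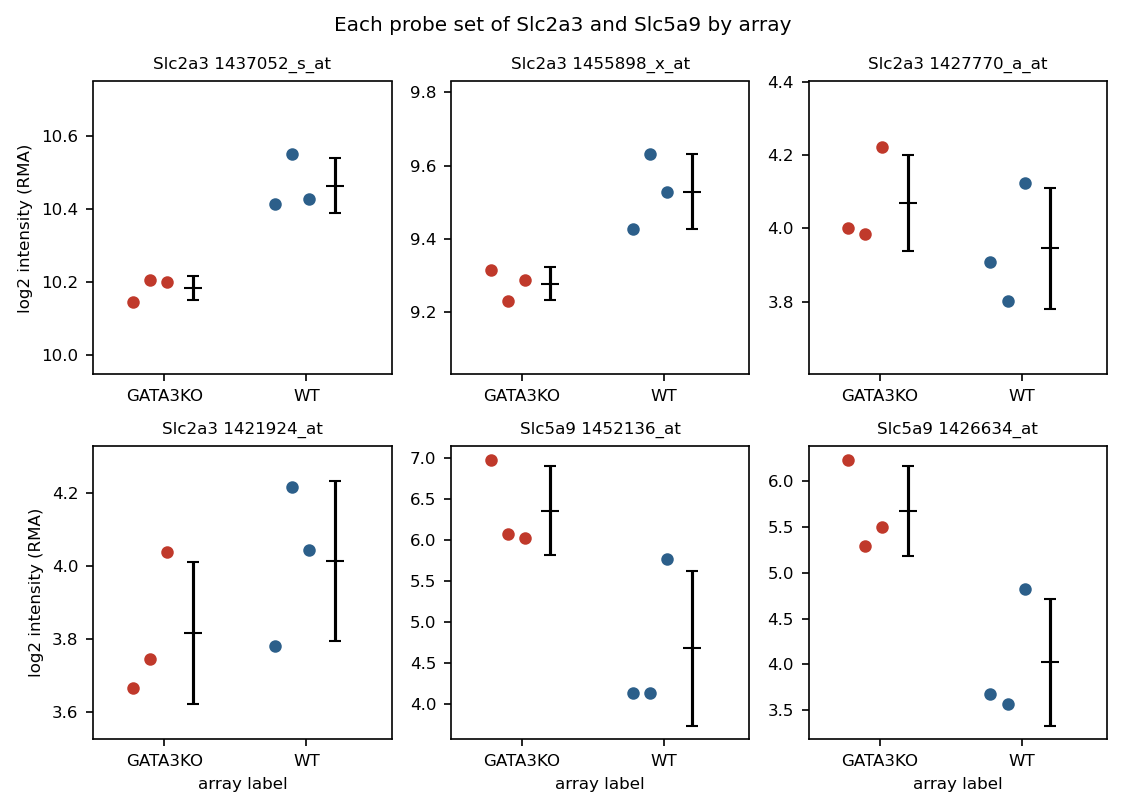
RMA log2 intensity by array for the 4 probe sets of Slc2a3 and the 2 of Slc5a9, arrays labelled GATA3KO (red) and WT (blue), replicates 1 to 3 from left to right, with mean ± SD (n = 3) in black and a separate range in each panel. Both bright probe sets of Slc2a3 read lower in arrays labelled GATA3KO, its dim ones overlap, and in both probe sets of Slc5a9 replicate 3 is the highest array labelled WT.

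The main glucose carrier of activated T cells, Slc2a1 (GLUT1), showed no detectable difference. It read 9.22, 8.98 and 9.05 in arrays labelled GATA3KO, against 8.98, 8.97 and 9.09 in arrays labelled WT. The groups overlapped, and the log2 change of 0.07 ± 0.07 (SE, adjusted p = 0.706 by limma) had a 95% interval of -0.08 to 0.23. Its 3 probe sets had changes between 0.0022 and 0.08. Among the other sugar carriers above the dim limit, the insulin-responsive Slc2a4 (GLUT4) had a change of 0.03 and the intracellular Slc2a8 of 0.05. Slc5a2, the sodium-coupled glucose carrier of the kidney tubule and also added after its values were seen, was dim and had a change of 0.34 ± 0.14 (SE, adjusted p = 0.309 by limma). Its 2 probe sets had changes of 0.31 and 0.34. The other 8 dim sugar carriers besides Slc5a9 and Slc5a2 had no adjusted p under the threshold either.

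Amino acid carriers held none that passed among 35, with 18 positive and 17 negative changes. At an unadjusted p under 0.05 were 1 higher, Slc38a1, and 3 lower, Slc7a10, Slc6a20a and Slc3a1, or 11.4%, beside 14.4% of all genes. The median size of change was 0.09, beside 0.08 over all genes. All 3 arrays labelled GATA3KO lay above those labelled WT in 4 of these carriers and below them in 3, which is 7 of 35 without overlap, beside 19.8% of all genes.

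The CD98 pair had small positive changes that did not pass. Slc7a5, the leucine-carrying light chain, read 7.42, 7.43 and 7.34 in arrays labelled GATA3KO, against 7.28, 7.22 and 7.28 in arrays labelled WT. The groups did not overlap, but the log2 change of 0.14 ± 0.06 (SE) had an adjusted p of 0.368 by limma. Slc3a2, the heavy chain that places the light chain at the membrane, read 9.24, 9.07 and 9.11 in arrays labelled GATA3KO, against 9.04, 8.94 and 9.09 in arrays labelled WT. Its groups overlapped, and the log2 change was 0.12 ± 0.06 (SE, adjusted p = 0.429 by limma). Slc7a6, another light chain of the same heavy chain, had a change of 0.03, with a 95% interval of -0.10 to 0.15. Its second probe set had a change of 0.15.

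Among glutamine carriers, Slc38a1 (SNAT1) read 8.10, 8.19 and 8.01 in arrays labelled GATA3KO, against 7.90, 7.96 and 7.94 in arrays labelled WT. The groups did not overlap, and the log2 change was 0.16 ± 0.06 (SE, adjusted p = 0.256 by limma). Slc38a2 (SNAT2), which cells induce when amino acids are scarce, read 9.67, 9.42 and 9.66 in arrays labelled GATA3KO, against 9.67, 9.60 and 9.67 in arrays labelled WT. GATA3KO replicate 2 alone was lower than the rest. Slc1a5 (ASCT2) read 8.86, 8.80 and 8.70 in arrays labelled GATA3KO, against 8.81, 8.78 and 8.88 in arrays labelled WT, so its groups overlapped. The 95% intervals were -0.22 to 0.09 for Slc38a2 and -0.16 to 0.09 for Slc1a5. The hepatic and neuronal glutamine carrier Slc38a3 had a change of 0.16 ± 0.12 (SE), and Slc38a10 of 0.03 ± 0.06, with its 7 probe sets between -0.11 and 0.26.

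Slc7a10, the light chain Asc-1 that carries small neutral amino acids, had the largest negative change of all members but did not pass. It read 6.06, 6.01 and 6.29 in arrays labelled GATA3KO, against 7.03, 6.56 and 6.36 in arrays labelled WT. The groups did not overlap, but WT replicate 3 lay close to GATA3KO replicate 3 and the arrays labelled WT were widely spread. The log2 change was -0.53 ± 0.16 (SE, adjusted p = 0.133 by limma), and it lay between -0.67 and -0.34 with each array left out. Slc1a4 (ASCT1), a carrier of serine and alanine, had a change of 0.11 on its brightest probe set and of -0.06 and -0.10 on the other 2. Slc7a4 had a change of -0.14 ± 0.08 (SE). Slc7a1, the arginine carrier CAT1, was dim and had a change of 0.0027.

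The remaining dim amino acid carriers had adjusted p from 0.124 upwards. The smallest was that of Slc6a20a, a proline carrier of kidney and gut added after its values were seen, with a change of -0.29 ± 0.08 (SE, adjusted p = 0.124 by limma). Its levels were 2.81 ± 0.05 in arrays labelled GATA3KO and 3.10 ± 0.10 in arrays labelled WT (SD, n = 3 each), near the lowest values on the array. Slc3a1, the heavy chain of the cystine carrier of the kidney and likewise added afterwards, had a change of -0.32 ± 0.13 (SE, adjusted p = 0.306 by limma).

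**Figure D4:**
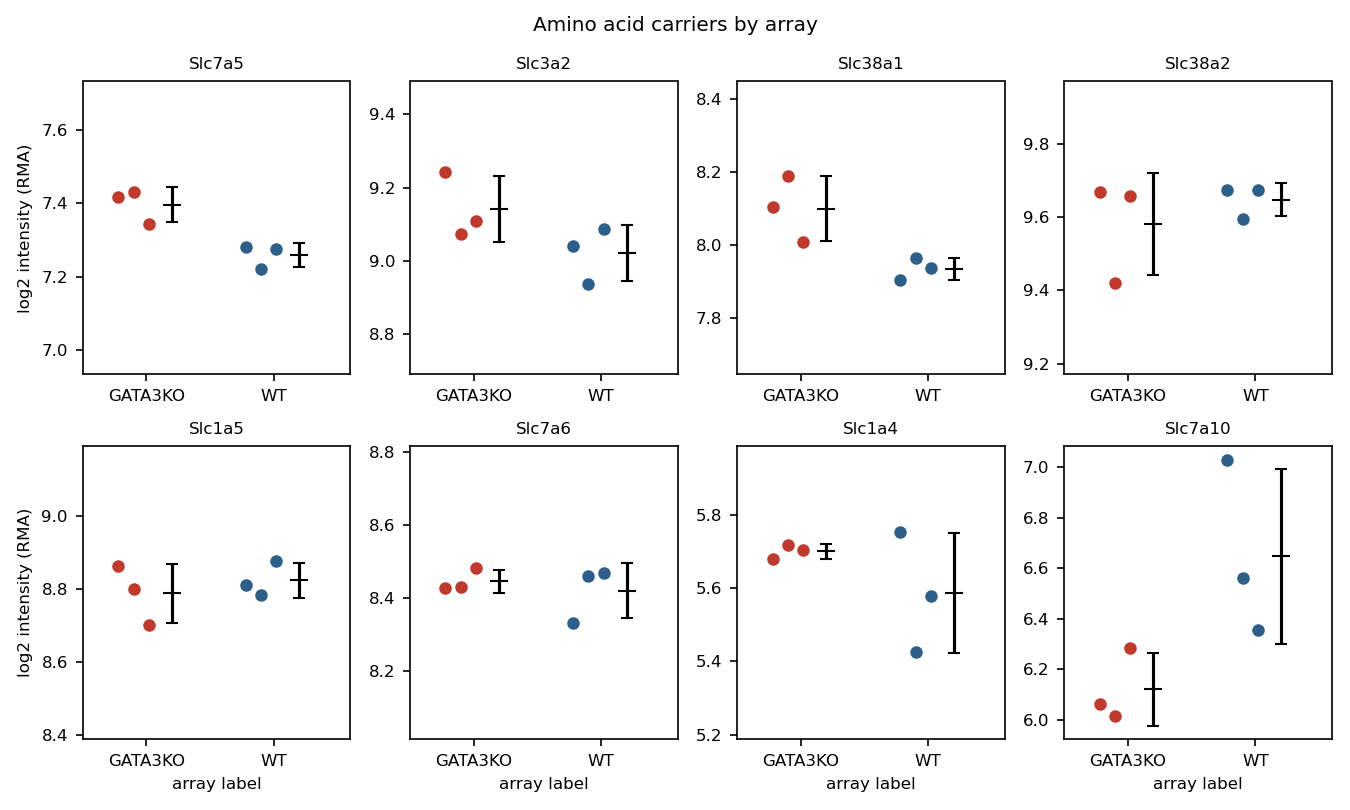
RMA log2 intensity of 8 amino acid carriers in each array labelled GATA3KO (red) and WT (blue), replicates 1 to 3 from left to right, with mean ± SD (n = 3) in black and a separate range in each panel. The groups do not overlap for Slc7a5, Slc38a1 and Slc7a10 and overlap for the other 5, and none passed the threshold.

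Monocarboxylate carriers had changes of both signs, and none of the 8 passed. Slc16a1 (MCT1), the lactate carrier of activated lymphocytes, read 8.70, 8.78 and 8.68 in arrays labelled GATA3KO, against 8.22, 8.45 and 8.73 in arrays labelled WT. The arrays labelled GATA3KO were close together, while WT replicate 3 reached their level, so the groups overlapped. The log2 change was 0.25 ± 0.11 (SE, adjusted p = 0.319 by limma), and it lay between 0.13 and 0.39 with each array left out. Slc16a6, a carrier linked to ketone body export in zebrafish liver, read 7.37, 7.81 and 7.75 in arrays labelled GATA3KO, against 7.97, 7.86 and 8.02 in arrays labelled WT. The groups did not overlap, GATA3KO replicate 1 was the lowest, and the log2 change of -0.31 ± 0.11 (SE) had an adjusted p of 0.213 by limma.

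Slc16a8 (MCT3), a lactate carrier known from the retinal pigment epithelium, read 6.30, 6.11 and 6.31 in arrays labelled GATA3KO, against 6.56, 6.47 and 6.33 in arrays labelled WT. The groups were separated by a small gap, and the log2 change was -0.21 ± 0.09 (SE, adjusted p = 0.337 by limma). Slc16a3 (MCT4), which exports lactate from glycolytic cells, was dim and had a change of 0.09 ± 0.12 (SE). The other members of the class, Slc16a4, Slc16a7, Slc16a11 and the sodium-coupled Slc5a8, were dim and had changes between -0.08 and 0.12.

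Of the 5 fatty acid carriers only Slc27a4 was above the dim limit. Slc27a4 (FATP4), a long-chain fatty acid carrier with acyl-CoA synthetase activity, read 5.96, 6.03 and 6.01 in arrays labelled GATA3KO, against 6.38, 6.27 and 6.20 in arrays labelled WT. The arrays labelled GATA3KO were all lower than those labelled WT, with a gap wider than the range within that group. The log2 change of -0.28 ± 0.08 (SE) nevertheless had an adjusted p of 0.131 by limma. Slc27a1, Slc27a2, Slc27a3 and the bile acid and fatty acid ligase Slc27a5 had changes of 0.14, -0.11, 0.05 and -0.14.

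Among the 11 carriers of other substrates, 3 were above the dim limit. Slc6a6, the taurine carrier, read 8.15, 8.17 and 8.03 in arrays labelled GATA3KO, against 7.99, 7.94 and 7.96 in arrays labelled WT. The groups did not overlap, and the log2 change was 0.16 ± 0.06 (SE, adjusted p = 0.245 by limma). Its other 2 probe sets had changes of -0.18 and 0.12. Slc43a3, a carrier of purine nucleobases, read 7.14, 7.21 and 7.15 in arrays labelled GATA3KO, against 7.06, 6.96 and 7.04 in arrays labelled WT, without overlap (0.15 ± 0.07, SE, adjusted p = 0.364 by limma). The iodide carrier Slc5a5 had a change of -0.08, the vitamin carrier Slc5a6 of -0.11 and the serotonin carrier Slc6a4 of 0.02, the last 2 of them dim.

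**Figure D5:**
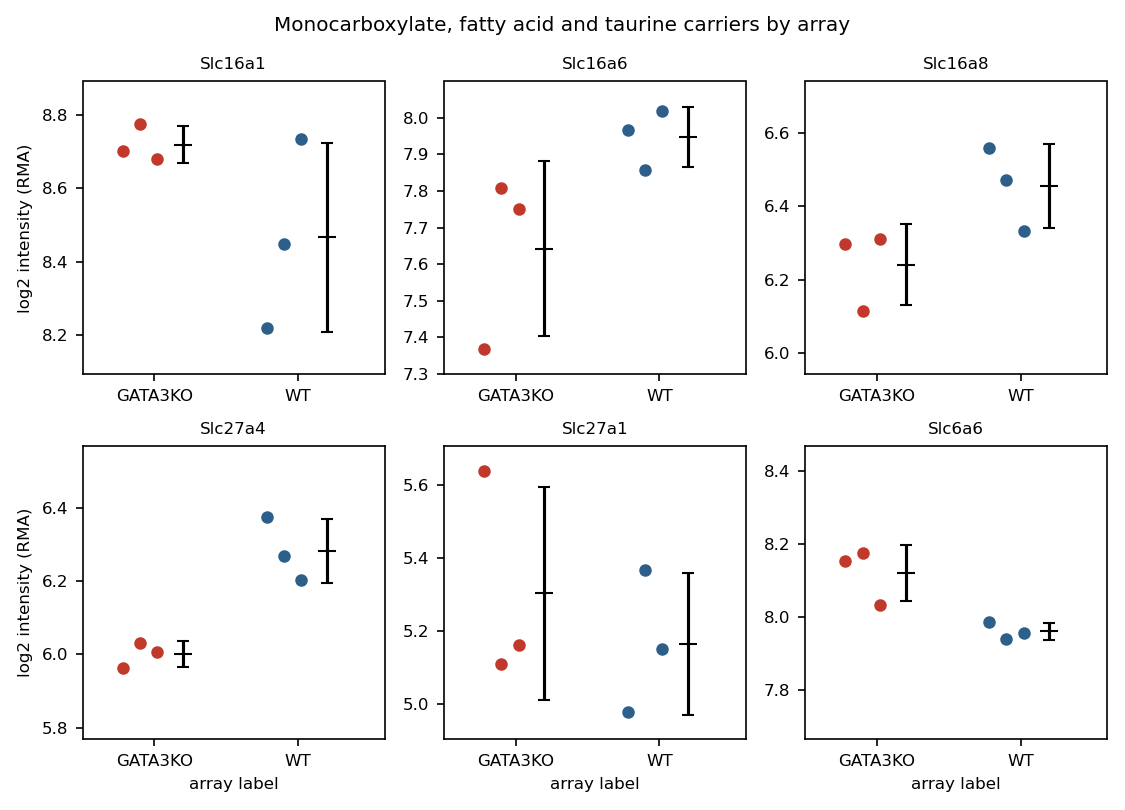
RMA log2 intensity of the monocarboxylate carriers Slc16a1, Slc16a6 and Slc16a8, the fatty acid carriers Slc27a4 and Slc27a1 and the taurine carrier Slc6a6 in each array labelled GATA3KO (red) and WT (blue), replicates 1 to 3 from left to right, with mean ± SD (n = 3) in black and a separate range in each panel. The groups overlap for Slc16a1 and Slc27a1 and are apart for the other 4, and none passed the threshold.

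Probe sets of the same carrier often differed in the direction of small changes. Of the 20 members with several probe sets, all probe sets had the same sign in 8. Those 8 included Slc2a1, Slc5a2, Slc5a9 and Slc7a6.

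Genes that act beside these carriers were read from lists, with counts over all genes tested. Of 19 measured genes of the response to amino acid shortage driven by ATF4, 2 rose and 0 fell (10.5%, beside 2.21% of all genes), with a median of 0.11. Phgdh, the first enzyme of serine synthesis, read 10.03, 9.94 and 9.94 in arrays labelled GATA3KO, against 9.68, 9.67 and 9.79 in arrays labelled WT (log2 change 0.26 ± 0.05, SE, adjusted p = 0.0347 by limma). Mthfd2, a mitochondrial enzyme of folate-bound one-carbon metabolism, rose by 0.38 ± 0.07 (SE, adjusted p = 0.0371 by limma). Of 24 genes by which mTORC1 senses amino acids, 0 passed by limma, with an unadjusted p under 0.05 in 1 of positive and 4 of negative change (20.8%, beside 14.4% of all genes), and a median of 0.01. The nearest were Sesn3 (-0.20), Sesn1 (-0.27) and the GTPase regulator Flcn (-0.23).

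Of 12 genes of glutamine and branched-chain amino acid use, 0 passed, with an unadjusted p under 0.05 in 3 of positive and 0 of negative change (25.0%, beside 14.4% of all genes), and a median of 0.09. Got2, a mitochondrial aminotransferase, had a change of 0.22 (adjusted p = 0.0559 by limma), Bcat1, which starts the breakdown of branched-chain amino acids, of 0.40 and Odc1, the first enzyme of polyamine synthesis, of 0.29. Of 8 genes that trap glucose or handle lactate, 0 passed, with 1 higher at an unadjusted p under 0.05 (12.5%, beside 14.4% of all genes) and a median of 0.01. Hexokinase Hk2 had a change of 0.25, Ldhb of -0.13 and Pdk1 of -0.14.

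Of 13 genes that bind, activate or oxidise fatty acids, 1 rose and 0 fell (7.69%, beside 2.21% of all genes), with a median of 0.12. Fabp5, an intracellular fatty acid binding protein, read 9.53, 9.78 and 9.84 in arrays labelled GATA3KO, against 8.86, 8.91 and 9.04 in arrays labelled WT. The groups were far apart beside the spread within them (log2 change 0.78 ± 0.08, SE, adjusted p = 0.00183 by limma). Of 10 regulators of carrier genes, 1 of them dim, 1 rose and 0 fell (2.21% of all genes passed), with a median of 0.02. Rora, a nuclear receptor of lipid metabolism and of Th17 cells, rose by 0.49 ± 0.09 (SE, adjusted p = 0.0257 by limma). Txnip, which promotes the removal of GLUT1 from the membrane, had a change of 0.32, and Myc, a driver of carrier genes in activated T cells, of 0.29, and neither passed.

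Markers of proliferation differed between the groups, while among the markers of other cell types only Cd22 and Gzma passed. All 5 proliferation genes rose (2.21% of all genes passed), and their mean level was 7.28 to 7.53 in arrays labelled GATA3KO and 6.50 to 6.91 in arrays labelled WT. The mean level of 8 neutrophil genes, all dim, was 4.63 to 5.29 in arrays labelled GATA3KO and 4.46 to 4.62 in arrays labelled WT, with 0 past the threshold by limma and 2 higher at an unadjusted p under 0.05 (25.0%, beside 14.4% of all genes). That of 10 myeloid genes, 6 of them dim, was 5.26 to 5.55 in arrays labelled GATA3KO and 5.08 to 5.24 in arrays labelled WT, with 0 past the threshold and 3 higher at an unadjusted p under 0.05 (30.0%, beside 14.4% of all genes). In the B cell list 1 of 6 genes rose, Cd22 (16.7%, beside 2.21% of all genes), and 3 were dim. Cd22 had a log2 change of 1.15 ± 0.11 (SE, adjusted p = 0.00152 by limma). The rest did not pass, with Cd79b at 0.23, Pax5 at 0.03, Blk at 0.0031, Cd79a at -0.20 and Ms4a1 at -0.40. In the NK cell list 1 of 3 rose, Gzma (33.3%, beside 2.21% of all genes), and all 3 were dim. Gzma had a log2 change of 0.99 ± 0.17 (SE, adjusted p = 0.0203 by limma). Ncr1 and Klra8 had changes of 0.03 and 0.09. The 2 CD8 genes and the 4 erythroid and platelet genes held none past the threshold. The part of these markers in the Slc2a9 and Slc2a3 changes was not tested. In such sorted samples a different mix of cells and a different RNA level per cell cannot be told apart.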

How the data were processed

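RNA of sorted Treg cells was hybridised to 6 Affymetrix arrays, labelled with biotin, per the labels' protocols. The deposited table holds 1 log2 intensity for each of 22690 probe sets on each array, made by the authors with RMA (background correction, quantile normalization between arrays, probe summary), per the submitters' processing notes (version not given in the sources used here). The log2 scale was read from the values. No scanner values were used, so background and saturation were not read, and no scan date is given in the sources used here. RMA's quantile step gives every array about the same distribution, so a change shared by most genes would not show.

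The platform's annotation gave gene names: 20393 probe sets had 1 gene, 691 had several and 1606 were unlisted. Entrez identifiers of 20364 matched a table of assembly GRCm38.p6, and 0 symbols changed. The probe set with the highest mean stood for a gene, giving 12394 genes. Differences were fitted unpaired over all genes with limma 3.58.1 in R 4.3.3 (lmFit, eBayes with an intensity trend), two-sided, with Benjamini-Hochberg adjustment over all genes and a threshold of 0.05. Errors are SDs over 3 arrays or limma's standard errors, and intervals are limma's 95% intervals. The fit was also tested on simulated data, with 50 genes given each size of change. There 34% of log2 changes of 0.3 and 66% of those of 0.5 were called, with 9 false calls among the other genes.

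The alternatives were a replicate block, no intensity trend, robust variance, dim probe sets left out, renewed quantile normalization, median centring, array weights, other probe sets, other thresholds and each array left out. The rule named members past the threshold, in each substrate class the 6 smallest p among those not dim and the 5 highest means, and 12 carriers well known in T cells. Of the further lists it named genes past the threshold, or else up to 3 with the smallest p. Slc3a1, Slc5a2, Slc5a9 and Slc6a20a were added after their values were seen. The members and lists were chosen with earlier results of these data known. Plots used matplotlib 3.10.9 (Python 3.11.15).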

Additional observations from a re-analysis of the deposited data

How the results depend on the processing

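No permutation test was run, since one of 3 against 3 arrays cannot give p below 0.1. The p-values given here thus rest on limma's variance model. The count of 274 genes past the threshold was 585 with array quality weights, 54 without the intensity trend, 525 at an adjusted p under 0.1 and 1789 at an unadjusted p under 0.05, and 62 to 270 with 1 array left out. The count of 2 carriers was 1 without the intensity trend, with the mean of all probe sets or without probe sets of shared name endings, each time Slc2a9, and 13 at an unadjusted p under 0.05. It was 0 to 3 with 1 array left out, at 0 without GATA3KO replicate 2, GATA3KO replicate 3 or WT replicate 2. With array quality weights, and without WT replicate 3, Slc5a9 passed as well. Class medians moved with dim probe sets left out, to -0.28 for fatty acid carriers (1 gene left), -0.21 for monocarboxylate carriers and 0.15 for other substrates. With 1 array left out they were -0.0384 to 0.0273 for amino acid carriers, -0.0439 to 0.0482 for monocarboxylate carriers, -0.0265 to 0.0342 for all members, 0.0439 to 0.0924 for sugar carriers, -0.189 to 0.0112 for fatty acid carriers and -0.0391 to 0.0702 for other substrates.

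Of the 37 carriers described singly, those that turned direction under some alternative had a main change smaller in size than 0.2, except Slc2a3. With array quality weights Slc27a1 was at -0.0172, Slc27a3 at -0.0125 and Slc7a1 at -0.0368. With the mean of all probe sets Slc1a4 was at -0.0137, Slc2a4 at -0.0338 and Slc2a3 at -0.15, no longer past the threshold. Other probe sets turned Slc1a4 (-0.10 and -0.0553), Slc2a3 (0.12, a dim probe set, which also stood for it without probe sets of shared name endings), Slc2a4 (-0.0967), Slc38a10 (-0.0266, -0.11 and -0.0282), Slc6a6 (-0.18) and Slc7a4 (0.092). With 1 array left out the changes ranged from -0.0278 to 0.184 for Slc16a3, -0.193 to 0.0023 for Slc16a4, -0.0722 to 0.0074 for Slc1a5, -0.0292 to 0.239 for Slc27a1, -0.272 to 0.0112 for Slc27a2, -0.0250 to 0.193 for Slc27a3, -0.0938 to 0.134 for Slc2a4, -0.0024 to 0.0710 for Slc38a10, -0.109 to 0.0151 for Slc38a2, -0.205 to 0.0130 for Slc5a5, -0.0389 to 0.128 for Slc6a4, -0.0358 to 0.0532 for Slc7a1 and -0.0186 to 0.0489 for Slc7a6. The causes were not tested.

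The labels do not say that the replicate numbers pair mice, so the main fit was unpaired. Deviations from the group means correlated at 0.04, -0.02 and 0.07 between same-numbered arrays of the groups. Between differently numbered arrays they correlated at -0.06 to 0.02. With so few arrays these values cannot decide whether the numbers are pairs. With the replicate number as a block 368 genes passed, and the same 2 carriers did, Slc2a9 with an adjusted p of 0.0188 and Slc2a3 with 0.0155.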

Other observations

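Among the 199 solute carrier genes outside the families described, 7 rose and 1 fell in arrays labelled GATA3KO (limma, adjusted p under 0.05), or 4.02%, beside 2.21% of all genes. These 8 were named after their values were seen. Slc14a1, a urea carrier, had a log2 change of 0.65 ± 0.14 (SE), Slc9b2 of 0.54 ± 0.08, the zinc and manganese carrier Slc39a8 of 0.44 ± 0.09 and the mitochondrial ADP and ATP exchanger Slc25a4 of 0.41 ± 0.06. The chloride cotransporter Slc12a2 had 0.36 ± 0.06, the zinc carrier Slc39a6 0.30 ± 0.06 and the mitochondrial carrier Slc25a39 0.27 ± 0.06. Slc35d1, a nucleotide sugar carrier of the endoplasmic reticulum, had the only decrease, at -0.77 ± 0.09 (SE), with 6.32 ± 0.08 in arrays labelled GATA3KO and 7.08 ± 0.16 in arrays labelled WT (SD, n = 3 each).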
